A study of Mus musculus with 2 samples.

Results

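The genes described here handle glutathione, peroxides and other oxidants: the glutathione S-transferases, the enzymes that make and recycle glutathione, the glutathione peroxidases, glutaredoxins, peroxiredoxins, thioredoxins with their reductases, superoxide dismutases, catalase, the quinone reductases, and the regulators Nrf2 (Nfe2l2) and Keap1. They were taken by gene symbol, from probe sets annotated to exactly 1 gene, which gave 105 of 45037 probe sets and 57 of 18193 genes. The group itself was chosen by looking at the ratios between these same arrays, while the symbols alone fixed its membership, so its counts are a description and no evidence of a direction. By the labels, transcripts were measured in bEnd3 cells, a BALB/c mouse endothelial line from brain microvessels transformed by polyoma middle T antigen. One group had received a retrovirus that delivers an siRNA against Smad4, the common Smad of TGF-β and BMP signalling, and the other a retrovirus with a control siRNA. Both had been selected with puromycin, and virus for both came from PLAT-E packaging cells. Each group had 1 Affymetrix array of RNA pooled from 2 infections. There were therefore no replicates and no test between groups, and precision is limited by having so few arrays.

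Glutathione is a small thiol that cells make in a pair of steps, the first by glutamate-cysteine ligase (Gclc and Gclm) and the next by glutathione synthetase (Gss). Glutathione S-transferases join it to reactive compounds, glutathione peroxidases spend it on peroxides, and glutathione reductase (Gsr) restores it. Peroxiredoxins do the same work with electrons from thioredoxin, which thioredoxin reductase recharges. In endothelium these systems remove hydrogen peroxide and products of nitric oxide chemistry, and the transcription factor Nrf2, held back by Keap1, drives many of the genes through antioxidant response elements.

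The labels were checked against the targeted gene and sex-linked genes. Smad4 itself gave 1165 on the array with the Smad4-siRNA label against 916 on the Control-siRNA array, so the targeted transcript was not lower, and the log2 ratios of its 3 probe sets lay between 0.25 and 0.58 (-0.12 to 0.21 in the values as deposited). Xist had signals of 4476 and 20.7, and the Y-linked Eif2s3y of 0.349 and 324, in the same order. These sex-linked genes thus differed between the arrays, and whether both arrays hold the same cell line was not tested. The sample is therefore called the array labelled Smad4-siRNA, and "higher" and "lower" say how its signal compares with that of the Control-siRNA array and do not stand for a response to loss of Smad4. Endothelial markers were present on the Control-siRNA array (19 of 20 reached the floor defined below, summed signal 26816) and largely missing on the array labelled Smad4-siRNA (9 of 20, summed signal 1134), where Pecam1, Cldn5, Emcn and Esam did not reach it. Fibroblast markers ran the other way, with 1 of 12 reaching the floor and a summed signal of 166 on the Control-siRNA array against 9 of 12 and 23545. Pericyte and smooth muscle markers had summed signals of 103 and 3017 in that order. Of these 10 markers, 5 were below the floor on both arrays, among them Rgs5 and Myh11. The floor was met by 2 under Control-siRNA and by 4 under the Smad4-siRNA label. Acta2 (1634) and Pdgfrb (968) made up most of the larger sum. Des went the other way, with 36.2 under Control-siRNA and 13.7 under the Smad4-siRNA label. Vwf was below the floor on both arrays. Of 7 microglia and leukocyte markers, 4 were below the floor on both arrays and 2 lay within 2-fold. The other, Cd68, had 820 under Control-siRNA and 35.2 under the Smad4-siRNA label. Of 6 astrocyte and 7 epithelial markers, only Slc1a3 (61.7) and Epcam (81.7) reached the floor, both under the Smad4-siRNA label alone. No neuron or oligodendrocyte marker reached it. What part these cell type markers have in any difference below was not tested, and in bulk RNA fewer cells of a type and less RNA per cell cannot be told apart.

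The values are MAS5 signals, quantile normalized here, and a ratio is the log2 of the array labelled Smad4-siRNA over the Control-siRNA array. The floor is the array median, a signal of 22.8. A gene with 1 side below it has only a bound, written "at least N-fold", and a gene with both sides below has no ratio. Each gene is given by its brightest probe set. Probe sets called of shared sequence below are those whose name carries the suffix s, x or a. Suffix a need not mean sequence shared with another gene. Between probe sets of the same gene the pooled SD of the log2 ratio was 0.47 over 4546 genes, and it was 0.41 over the 20 members with several measured probe sets. In 15 of those 20 all measured probe sets had the same sign. The others were Gclc, Prdx4, Sod1, Sod2 and Nqo2. This SD is a technical error and holds nothing of the spread between cultures.

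Of the 57 genes, 39 reached the floor on both arrays, 5 did so with the Smad4-siRNA label alone, 4 with Control-siRNA alone, and 9 on neither (Gsta2, Gsta3, Gstm6, Gstm7, Gstp3, Gstt4, Gpx2, Gpx5 and Gpx6). At least 2-fold higher were 17 of the 48 measured genes, beside 16.0% of all 11581 genes measured, and 6 were at least 2-fold lower, beside 15.8% of all genes. The remaining 25 lay between. Genes measured on 1 array alone had to differ to some degree, so they add nothing to these counts as evidence. Over the 39 measured on both arrays, 13 were higher (background 12.6%) and 3 lower (background 15.0%), and the median log2 ratio was 0.18 (0.14 with the bounds), beside -0.15 (-0.11 with bounds) over all genes. The values as deposited, in which the median of all genes was -0.33, gave 15 higher and 9 lower members, so the higher genes made up 62.5% of the differing ones in place of 73.9%. The same share over all genes was 43.4% as deposited in place of 50.3%, so it was lower for all genes too. Of the 17 higher genes 9 were transferases, and the others included Gpx7, Gpx8, Glrx and Txnip.

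**Figure D1:**
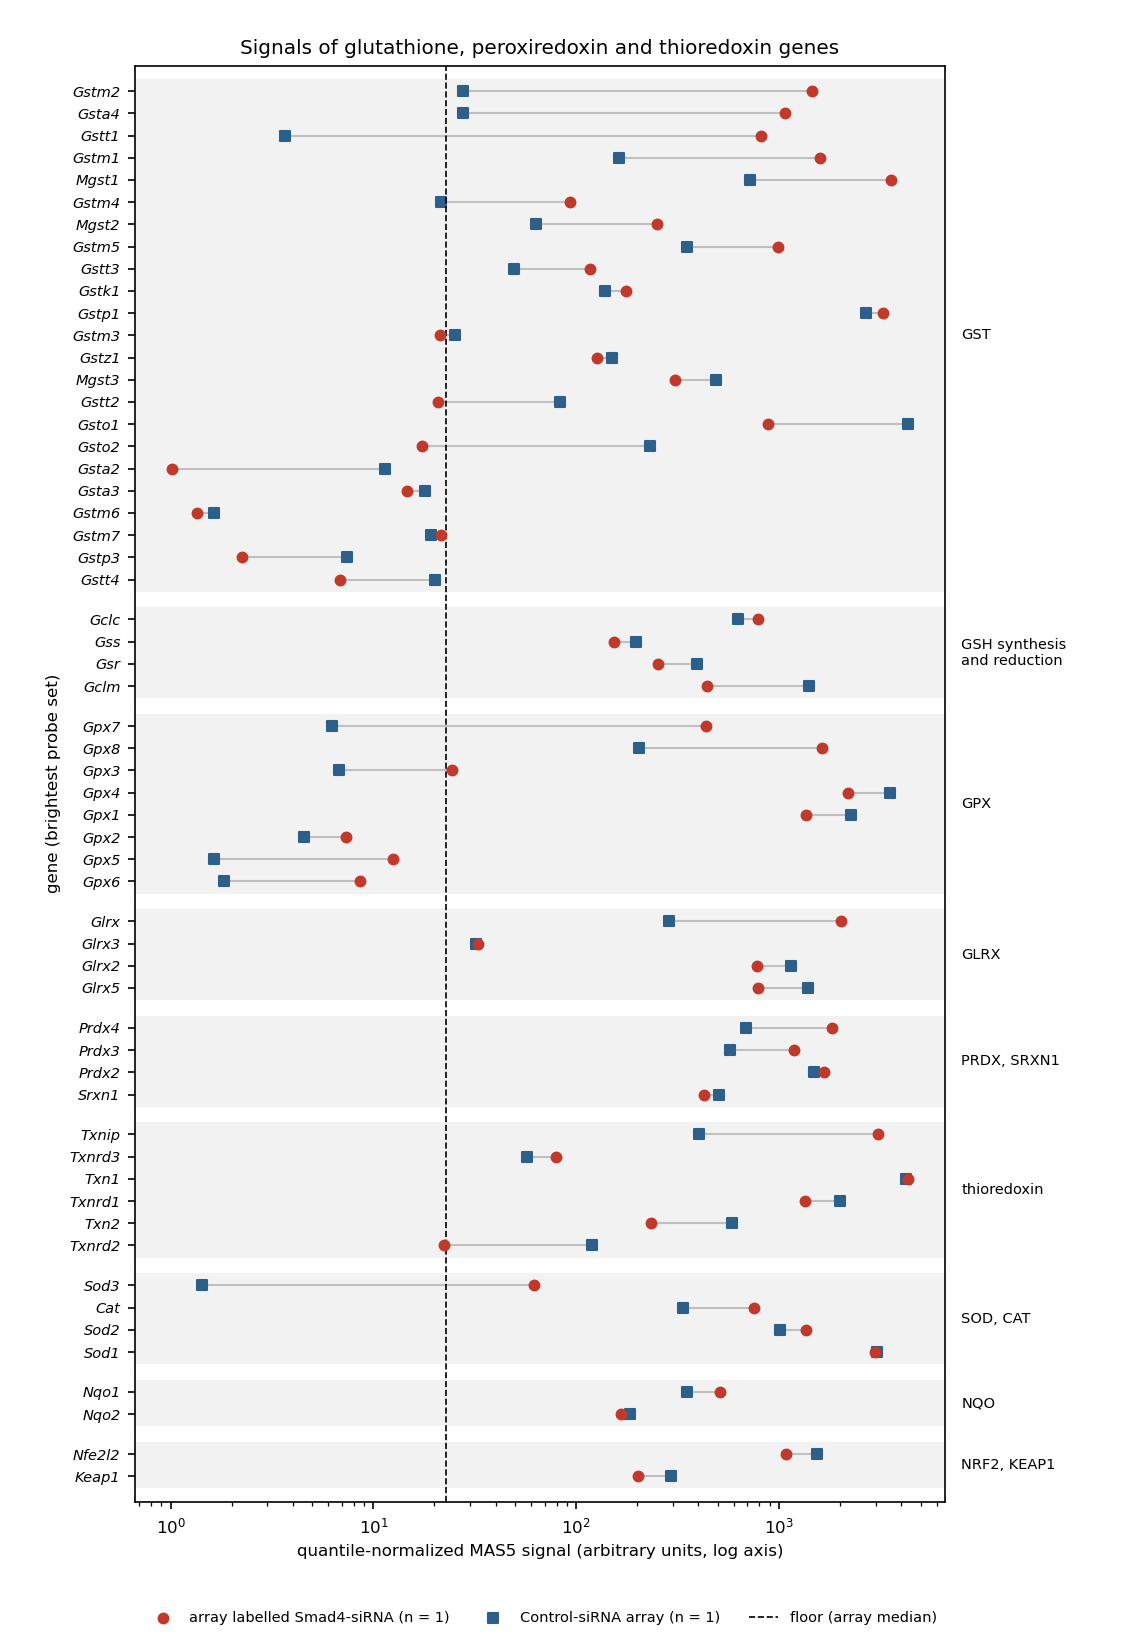
Quantile-normalized signal (arbitrary units, log axis) of the brightest probe set of each of the 57 genes on the array labelled Smad4-siRNA (red circles) and the Control-siRNA array (blue squares), 1 array each, by functional group; the dashed line is the floor of 22.8. Gstt1, Gpx7 and Sod3 reached the floor with the Smad4-siRNA label only, whereas Txn1 and Sod1 had nearly the same signal on both.

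**Figure D2:**
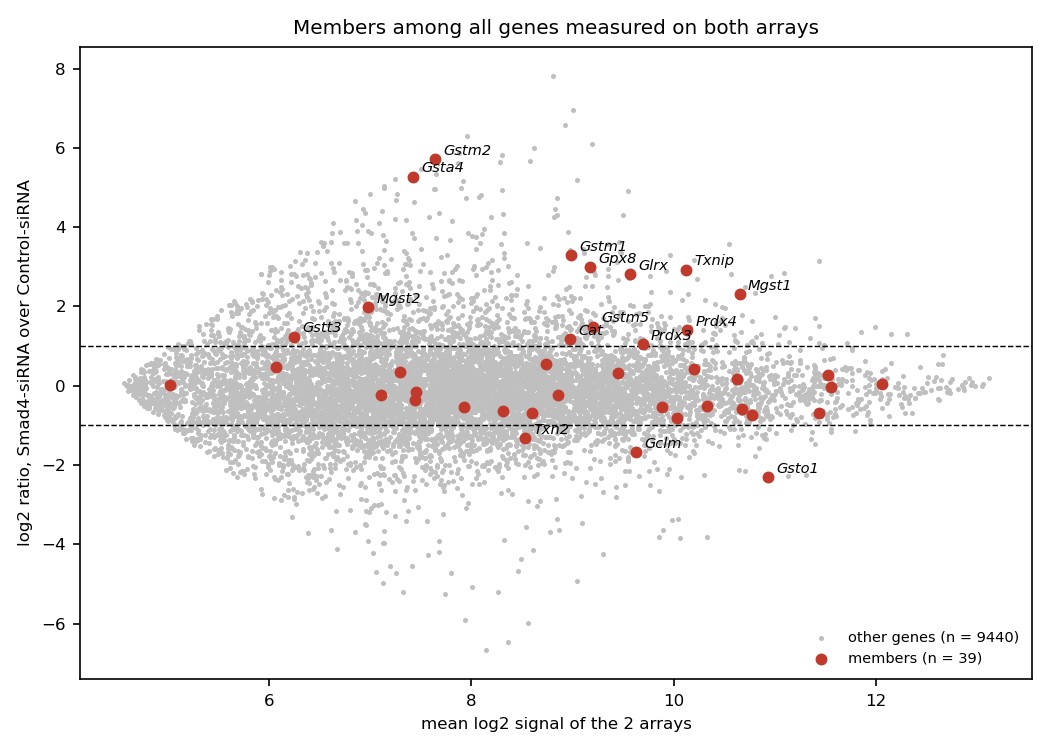
Log2 ratio against mean log2 signal for all genes measured on both arrays, with the 39 members in red, those past 2-fold (dashed lines) named, and the other 9440 genes in grey. Gstm2 (5.72) and Gsta4 (5.28) lie at the upper edge of the cloud and Gsto1 (-2.29) is the lowest member.

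Nrf2 is known to act through the antioxidant response element, so its core, TGACNNNGC on either strand, was looked for in the 250 bases before the RefSeq start of each gene (GRCm38.p6). Of the members, 52 had an entry in the RefSeq promoter table. The core was found in 8 of them (15.4%), Gclm, Gsta3, Gstm5, Gstm7, Mgst1, Nfe2l2, Sod1 and Txnrd1, beside 11.5% of all 27025 genes of the table. It was in 2 of 15 higher genes, 1 of 5 lower genes and 3 of 23 genes between. The AP-1 motif TGANTCA, which can overlap the core, was found in 5 members, 3 of them higher (Glrx, Gstm5 and Mgst2), or 9.62% beside 7.82% of all genes. A match is a description of letters and says nothing of binding. The windows below show 4 genes that carry the core and went different ways, the lower Gclm, Txnrd1 within 2-fold, and the higher Mgst1 and Gstm5, followed by Gstm2 and Gstt1, which had the largest measured ratio and the largest bound and no core in the window. Capitals mark the core. The windows are chr3:122245307-122245556 (+) for Gclm, chr10:82858956-82859205 (+, 1 of 3 starts) for Txnrd1, chr6:138140277-138140526 (+, 1 of 2 starts) for Mgst1, chr3:107895604-107895853 (+) for Gstm5, chr3:107986421-107986670 (-) for Gstm2 and chr10:75797732-75797981 (-) for Gstt1.
Gclm: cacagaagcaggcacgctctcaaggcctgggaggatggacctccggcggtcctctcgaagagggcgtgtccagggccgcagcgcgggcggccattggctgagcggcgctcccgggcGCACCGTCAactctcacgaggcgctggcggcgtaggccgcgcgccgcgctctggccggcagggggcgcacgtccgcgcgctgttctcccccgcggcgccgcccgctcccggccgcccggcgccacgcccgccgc
Txnrd1: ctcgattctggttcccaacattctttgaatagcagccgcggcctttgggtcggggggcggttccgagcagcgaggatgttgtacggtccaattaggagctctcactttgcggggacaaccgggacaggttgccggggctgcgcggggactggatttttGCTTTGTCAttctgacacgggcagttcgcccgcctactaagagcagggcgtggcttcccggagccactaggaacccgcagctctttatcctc
Mgst1: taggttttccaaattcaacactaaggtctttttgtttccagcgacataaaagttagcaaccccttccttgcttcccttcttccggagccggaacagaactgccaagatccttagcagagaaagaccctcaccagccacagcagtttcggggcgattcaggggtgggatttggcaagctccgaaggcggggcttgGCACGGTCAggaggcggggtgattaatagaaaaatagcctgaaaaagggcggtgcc
Gstm5: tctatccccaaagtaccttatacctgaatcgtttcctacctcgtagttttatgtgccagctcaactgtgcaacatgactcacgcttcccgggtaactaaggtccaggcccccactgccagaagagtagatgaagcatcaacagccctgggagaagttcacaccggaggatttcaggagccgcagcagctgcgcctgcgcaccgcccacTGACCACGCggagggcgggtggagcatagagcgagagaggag
Gstm2: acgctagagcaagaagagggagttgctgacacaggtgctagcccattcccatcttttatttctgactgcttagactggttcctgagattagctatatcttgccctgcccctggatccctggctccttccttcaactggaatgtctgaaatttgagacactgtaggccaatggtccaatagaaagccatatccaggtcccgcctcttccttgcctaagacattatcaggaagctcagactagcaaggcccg
Gstt1: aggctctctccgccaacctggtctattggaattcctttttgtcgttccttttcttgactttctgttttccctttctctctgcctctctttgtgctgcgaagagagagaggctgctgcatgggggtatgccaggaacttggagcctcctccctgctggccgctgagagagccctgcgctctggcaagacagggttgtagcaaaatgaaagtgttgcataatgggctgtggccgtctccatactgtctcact

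The glutathione S-transferases differed in both directions. Of 17 measured, 9 were at least 2-fold higher, 3 at least 2-fold lower and 5 between, beside 16.0% higher and 15.8% lower of all genes. Among the 12 measured on both arrays, 7 were higher and 1 lower, beside 12.6% and 15.0% of all genes. The median log2 ratio of those 12 was 1.37 (1.24 with bounds). Gstm2, a cytosolic transferase of the mu class, gave 1450 under the Smad4-siRNA label against 27.6 under Control-siRNA, the order in which every later pair of signals is given. It was 52.6-fold higher, with the control signal barely above the floor. Gsta4, an alpha-class enzyme known for conjugating 4-hydroxynonenal, a product of lipid peroxidation, had signals of 1068 and 27.5. Its 38.8-fold difference again rests on a control signal just over the floor. Gstt1, a theta-class enzyme that acts on small halogenated compounds, had signals of 819 and 3.66 and was at least 36.0-fold higher. All 3 came from 1 probe set each, so no other probe set checks them.

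Among the other mu-class genes, Gstm1 had signals of 1588 and 163 (9.77-fold higher), and its 3 probe sets measured on both arrays had log2 ratios from 2.05 to 3.50. Gstm5 had 986 and 351 (2.81-fold higher). Gstm4, whose control signal missed the floor, had 92.8 and 21.6 and was at least 4.07-fold higher. Gstm3 was near the floor on both sides (21.2 and 25.3), and Gstm6 and Gstm7 were below it on both. In RefSeq's order the mu-class genes follow each other on chromosome 3 as Gstm5, Gstm7, Gstm6, Gstm3, Gstm2, Gstm1 and Gstm4, with 0 other protein-coding genes between them. The higher genes thus lay at both ends of the cluster, with the unmeasured genes and Gstm3 between them. These genes are near-identical copies in part, and the brightest Gstm1 probe set is of a class that the array maker marks as sharing sequence, so values of single mu-class genes are uncertain. Without such probe sets Gstm1 had a log2 ratio of 3.50.

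The theta-class genes, also neighbours, went different ways. Gstt3 had signals of 117 and 49.4 (2.36-fold higher), whereas Gstt2, with 20.8 and 83.1, was at least 3.65-fold lower. On chromosome 10 their order is Gstt3, Gstt1, Gstt4 and Gstt2, with 0 protein-coding genes between. Gstt4 was below the floor on both arrays. The omega-class pair was lower together. Gsto1, known for dehydroascorbate reductase activity, had 883 and 4333 and was 4.91-fold lower, and its probe sets gave log2 ratios of -2.29 and -2.23. Gsto2, its direct neighbour on chromosome 19, had 17.4 and 230 and was at least 10.1-fold lower. Raising the floor to the 75th percentile shrank the Gsto2 bound to a log2 ratio of -0.86.

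The membrane-bound transferases of the MAPEG family were split as well. Mgst1, found in the endoplasmic reticulum and outer mitochondrial membrane, had signals of 3587 and 723 (4.96-fold higher). Mgst2, which can conjugate leukotriene A4, had 251 and 63.3 (3.97-fold higher). Under that raised floor the Mgst2 log2 ratio was a bound of 0.98. Mgst3 had 306 and 489, a log2 ratio of -0.68. The soluble transferases Gstp1 (3255 and 2688), Gstk1 (176 and 139) and Gstz1 (127 and 150) had log2 ratios of 0.28, 0.35 and -0.25, all smaller than the spread of 0.47 between probe sets.

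**Figure D3:**
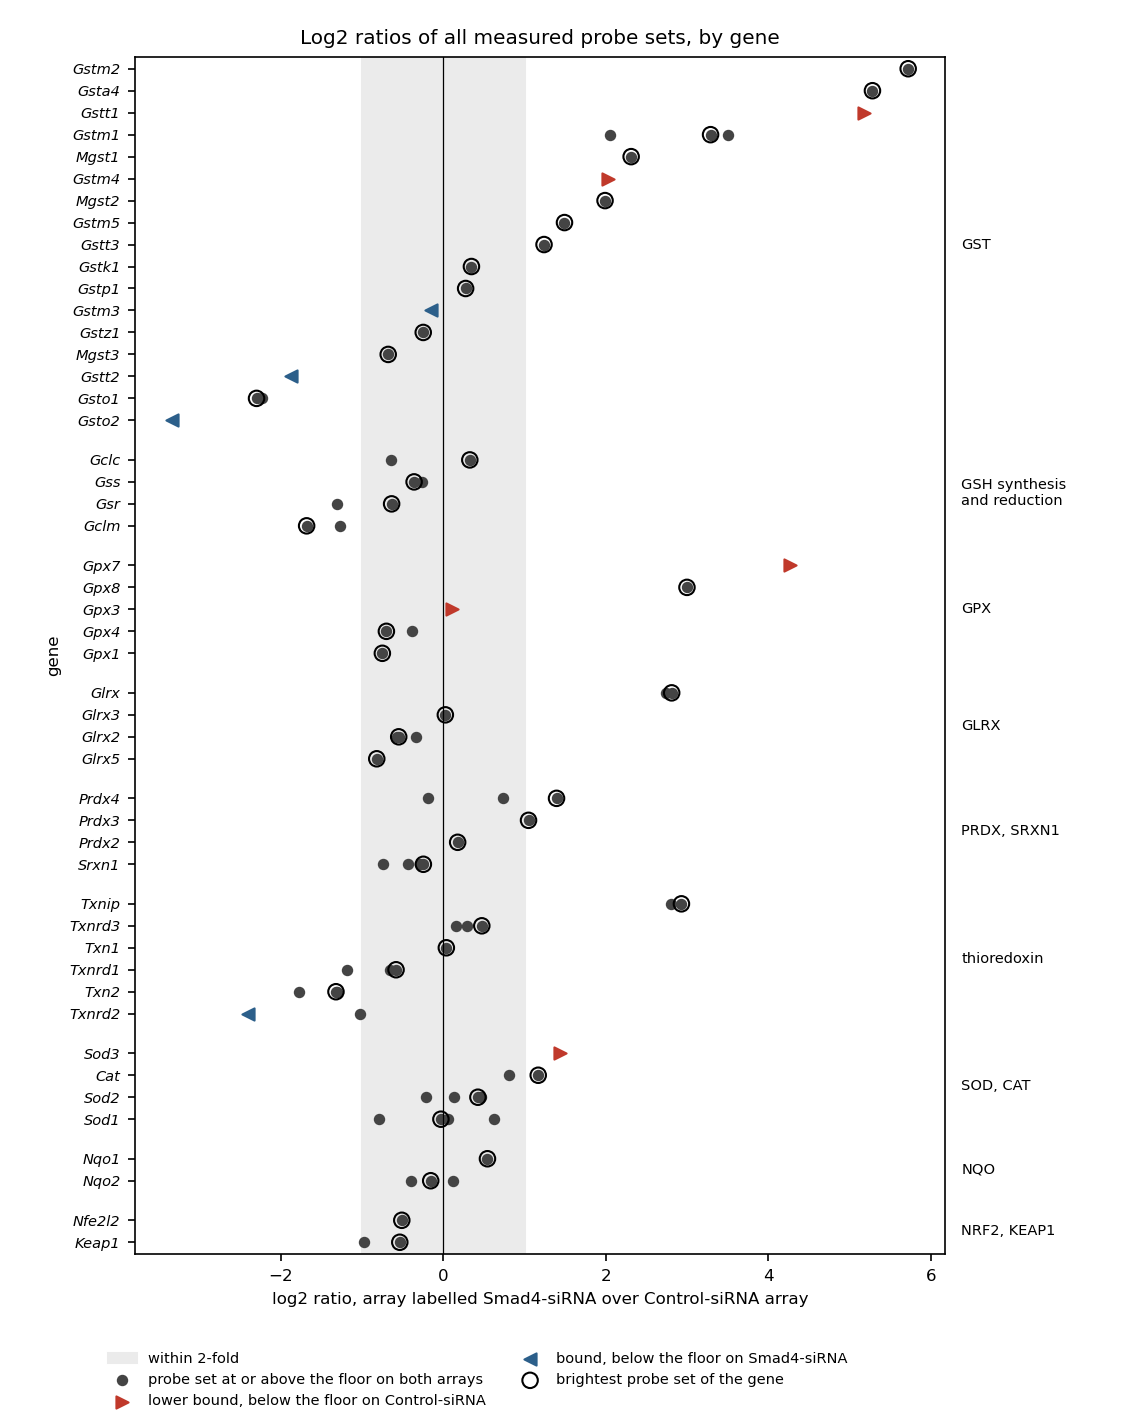
Log2 ratio of every member probe set measured on both arrays (dots; the brightest of each gene ringed) and bounds for genes measured on 1 array alone (triangles pointing away from 0), by gene and group; grey marks the range within 2-fold. The 2 probe sets of Txnip, of Glrx and of Gsto1 nearly coincide, whereas those of Prdx4 run from -0.19 to 1.39 and those of Sod1 from -0.79 to 0.63.

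None of the 4 genes that make and recycle glutathione was at least 2-fold higher. Gclm, the modifier subunit of glutamate-cysteine ligase and a standard Nrf2 target, had signals of 442 and 1416. It was 3.20-fold lower, and its 2 probe sets read -1.68 and -1.27 on the log2 scale. Gclc, the catalytic subunit, had 786 and 626, and its probe sets disagreed, with log2 ratios of 0.33 and -0.64. Gss had 154 and 197 (log2 ratio -0.36). Gsr had 254 and 395, with log2 ratios of -0.63 and -1.30. Across these 4 genes the median was -0.50, with 1 lower, 0 higher and 3 between. All 4 were measured on both arrays, where 15.0% of all genes were lower and 12.6% higher.

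Of the 5 measured glutathione peroxidases, Gpx7 and Gpx8, the peroxidases of the endoplasmic reticulum, were higher and the other 3 lay within 2-fold. Over all genes measured, 16.0% were higher and 15.8% lower. Gpx7 and Gpx3 reached the floor with the Smad4-siRNA label alone, so they could not be lower. Of the 3 measured on both arrays, 1 was higher (background 12.6%), 0 lower (background 15.0%) and 2 between. Their median log2 ratio was -0.70. Gpx7 had signals of 439 and 6.23 and was at least 19.3-fold higher. Gpx8 had 1632 and 204 and was 7.99-fold higher. Gpx1, the main cytosolic selenoenzyme, had 1358 and 2280, a log2 ratio of -0.75 (-1.07 as deposited). Gpx4, which reduces lipid peroxides in membranes and guards against ferroptosis, had 2182 and 3540, its probe sets giving log2 ratios of -0.70 and -0.39. The secreted Gpx3 was near the floor under the Smad4-siRNA label (24.5) and below it otherwise (6.75), a bound of only 1.08-fold.

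The glutaredoxins, which use glutathione to reduce protein disulfides, had 1 gene past 2-fold of 4. All 4 were measured on both arrays, where 12.6% of all genes were higher and 15.0% lower. Glrx, the cytosolic form, had signals of 2014 and 287 and was 7.01-fold higher, and its 2 probe sets read 2.81 and 2.74 on the log2 scale. The mitochondrial Glrx2 had 783 and 1144, and all 3 of its probe sets lay between -0.57 and -0.34. Glrx5, which serves iron-sulfur cluster assembly in mitochondria, had 792 and 1395, a log2 ratio of -0.82, and passed 2-fold in the values as deposited (-1.19). Glrx3 was close to the floor on both arrays (32.7 and 32.1) in the only probe set of its own.

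Among peroxiredoxins, the mitochondrial and secretory forms were higher by small margins. Prdx4, the peroxiredoxin of the endoplasmic reticulum, had signals of 1819 and 692 (2.63-fold higher), but its 3 probe sets measured on both arrays ran from -0.19 to 1.39. Taking the median of those in place of the brightest, it had a log2 ratio of 0.74. Another Prdx4 probe set gave 5.08 and 26.1, the first below the floor. Prdx3, of mitochondria, had 1191 and 576, which was 2.07-fold higher and 0.66 on the log2 scale as deposited. The cytosolic Prdx2 had 1678 and 1483, a log2 ratio of 0.18 that turned to -0.18 as deposited. Srxn1, the sulfiredoxin that revives over-oxidised peroxiredoxins and a standard Nrf2 target, had 427 and 505, and all 4 of its probe sets were below 0, from -0.74 to -0.24.

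In the thioredoxin system the inhibitor was higher and the mitochondrial enzymes were lower. Txnip, the arrestin-like protein that binds thioredoxin and whose transcription follows glucose, had signals of 3077 and 404 and was 7.62-fold higher, and its 2 probe sets read 2.93 and 2.80 on the log2 scale. Txn1, the cytosolic thioredoxin, had 4344 and 4228, a log2 ratio of 0.04 (-0.09 as deposited). Its mitochondrial counterpart Txn2 had 234 and 584 and was 2.49-fold lower, with 3 probe sets between -1.78 and -1.31. The mitochondrial reductase Txnrd2 had 22.2, just under the floor, and 120, and was at least 5.28-fold lower. Its 1 probe set measured on both arrays had a log2 ratio of -1.02. Txnrd1, the cytosolic reductase and a standard Nrf2 target, had 1343 and 2006, with probe sets from -1.18 to -0.58, and Txnrd3, best known from testis, had 79.1 and 56.9 (log2 ratio 0.47).

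Superoxide dismutases and catalase were higher or near equal. Sod3, the extracellular superoxide dismutase, had signals of 61.7 and 1.42 and was at least 2.71-fold higher. The bound is small because the signal was low on both arrays. Cat, the peroxisomal catalase, had 756 and 336 (2.25-fold higher), its probe sets giving log2 ratios of 1.17 and 0.81, with 0.82 as deposited in the brightest. Sod1, the cytosolic copper-zinc enzyme, had 2988 and 3046. Its log2 ratio of -0.03 stood among probe sets from -0.79 to 0.63. Sod2, the manganese enzyme of mitochondria, had 1368 and 1018, a log2 ratio of 0.43 that was 0.04 as deposited.

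Nrf2 and its inhibitor had similar ratios. Nfe2l2 had signals of 1080 and 1537 (log2 ratio -0.51), and Keap1 had 202 and 292, its probe sets giving log2 ratios of -0.53 and -0.97. Another Nfe2l2 probe set gave 2.12 and 44.6, the first below the floor. By the brightest probe set both were within 2-fold, and protein level or activity of Nrf2 was not measured. The quinone reductase Nqo1, a standard Nrf2 target, had 515 and 353 (log2 ratio 0.54, 0.21 as deposited). Nqo2 had 166 and 185, with probe sets from -0.40 to 0.12. 

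**Figure D4:**
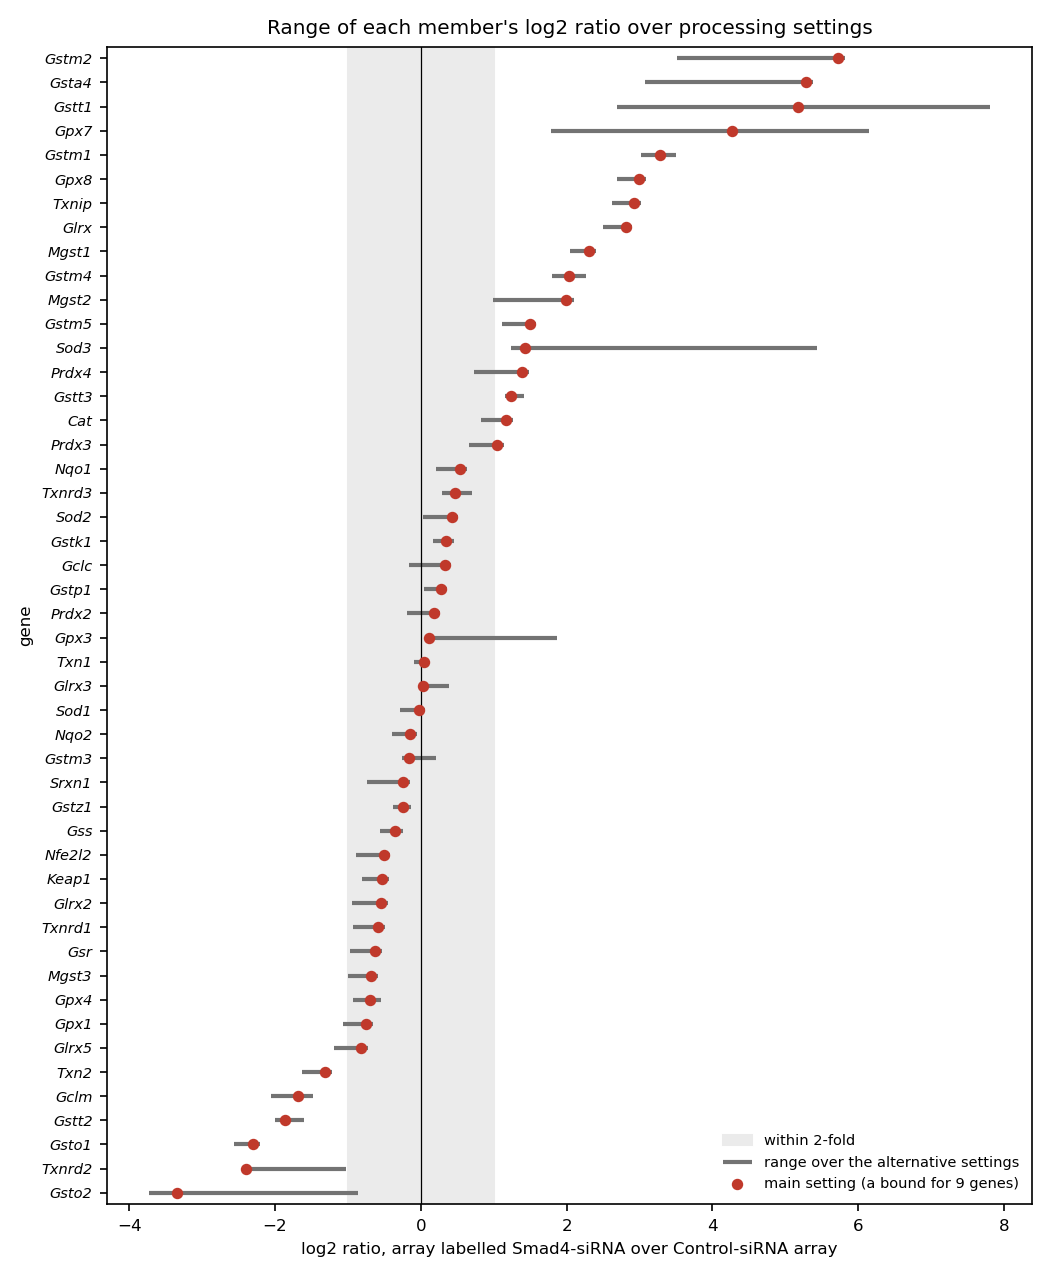
Log2 ratio of the 48 measured members in the main setting (red points, a bound for 9 genes) with the lowest and highest value over the 9 alternative settings (grey bars). The bars of Gstt1, Gpx7 and Sod3 are long because their control signals lay below the floor, and those of Cat, Prdx3, Prdx4 and Mgst2 reach below 1.

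Genes that work beside these enzymes were taken from 9 lists that hold none of the members and share a few genes with each other. Of all genes measured, 16.0% were at least 2-fold higher and 15.8% lower (12.6% and 15.0% of those on both arrays). Counted with bounds, the share of higher Nrf2 targets and that of lower glutathione handling genes lay near 16.0% and 15.8%. On both arrays the counts were 4 of 21 and 3 of 13. No list count was tested against the shares over all genes. Glutathione handling had 17 measured genes, with 4 higher and 3 lower by 2-fold or more and 10 between (4 and 5 as deposited). Of its 13 genes measured on both arrays, 1 was higher, 3 lower and 9 between. With the floor at the 75th percentile, 0 were higher and 2 lower of 11. Slc7a11, the cystine carrier that feeds glutathione synthesis, had 213 and 67.2 (3.17-fold higher). Chac1, which degrades glutathione, had 218 and 713 (3.27-fold lower) and Ggct had 60.1 and 188 (3.12-fold lower). The peptidase Anpep was at least 7.24-fold higher (165 and 7.05). Of 22 Nrf2 target genes outside the group, 4 were higher, 1 lower and 17 between (3 and 2 as deposited, and 2 and 0 of 18 without probe sets of shared sequence). Ptgr1 was 10.2-fold higher (1627 and 159) and Idh1, a source of NADPH, 7.24-fold higher (1600 and 221), whereas Taldo1 of the pentose phosphate pathway was 3.24-fold lower (653 and 2112). Of 12 partners and regulators of Nrf2, 11 lay between and 1, the small Maf gene Mafk, was 3.29-fold lower (82.1 and 270).

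Of 28 genes of thioredoxin fold, disulfide formation and methionine sulfoxide repair, 9 were higher, 0 lower and 19 between, but only 4 were higher and 1 lower as deposited. All 28 were measured on both arrays, where 12.6% of all genes were higher and 15.0% lower. Without probe sets of shared sequence, 8 were higher and 3 lower of 24. Txndc5 had 1932 and 295 (6.54-fold higher) and Pdia5 290 and 66.4 (4.37-fold higher), both disulfide isomerases of the endoplasmic reticulum. Of 6 relatives and upstream factors of Txnip, the arrestin-domain genes Arrdc4 (220 and 57.5, 3.82-fold) and Arrdc3 (498 and 180, 2.77-fold) were higher and 4 lay between.

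Of 10 measured enzymes that produce oxidants, 4 were higher and 2 lower, and the other 4 lay within 2-fold (2 and 2 of 8 past it with the floor at the 75th percentile). Of the 6 measured on both arrays, 1 was higher, 2 lower and 3 between, beside 12.6% higher and 15.0% lower of all genes. The remaining 4 reached the floor with the Smad4-siRNA label alone, so they could not be lower. Cyba, the membrane subunit of NADPH oxidases, had 740 and 191 (3.87-fold higher), and Xdh, xanthine dehydrogenase, was at least 18.2-fold higher (415 and 7.29). Nox4, the main endothelial NADPH oxidase, had 59.4 and 439 (7.38-fold lower). Nos3, which is also on the endothelial marker list, had 28.0 and 2859 (102-fold lower). Of 15 selenoprotein genes 13 lay between, with Selenop, a secreted selenium carrier, 5.57-fold higher (3939 and 707) and Secisbp2, needed to insert selenocysteine, 2.09-fold lower (94.0 and 197). With a lowess trend removed, 14 lay between and 0 were lower, and without probe sets of shared sequence 0 were higher and 1 lower of 13. Of 9 metal-handling genes, 4 were higher, 1 lower and 4 between. These and the selenoprotein genes were all measured on both arrays, where 12.6% of all genes were higher and 15.0% lower. Ceruloplasmin (Cp) had 6719 and 29.7 (226-fold higher), metallothionein 1 (Mt1) had 5732 and 46.3 (124-fold higher), and the copper chaperone Atox1 had 827 and 2372 (2.87-fold lower). Of 10 other xenobiotic enzymes and regulators, 3 were higher, 0 lower and 7 between. On both arrays 7 were measured, with 1 higher, 0 lower and 6 between. The aryl hydrocarbon receptor gene Ahr had 953 and 69.7 (13.7-fold higher), and Cyp1b1, one of its targets, was at least 77.1-fold higher (1757 and 8.61). Ephx2 was higher as well, at least 10.9-fold (247 and 2.87), and the other measured genes of that list lay within 2-fold. Tiparp had 309 and 393 (log2 ratio -0.34), Ahrr had 0.978 and 44.0 (at least 1.93-fold lower), and Cyp1a1 was below the floor on both arrays. On the same arrays 18 of 19 measured endothelial markers were at least 2-fold lower and 8 of 9 fibroblast markers at least 2-fold higher. Of these, 10 endothelial markers reached the floor with Control-siRNA alone and 8 fibroblast markers with the Smad4-siRNA label alone. Those could not go the other way. On both arrays, 8 of 9 endothelial markers were lower and 1 of 1 fibroblast marker higher, beside 15.0% and 12.6% of all genes.

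**Figure D5:**
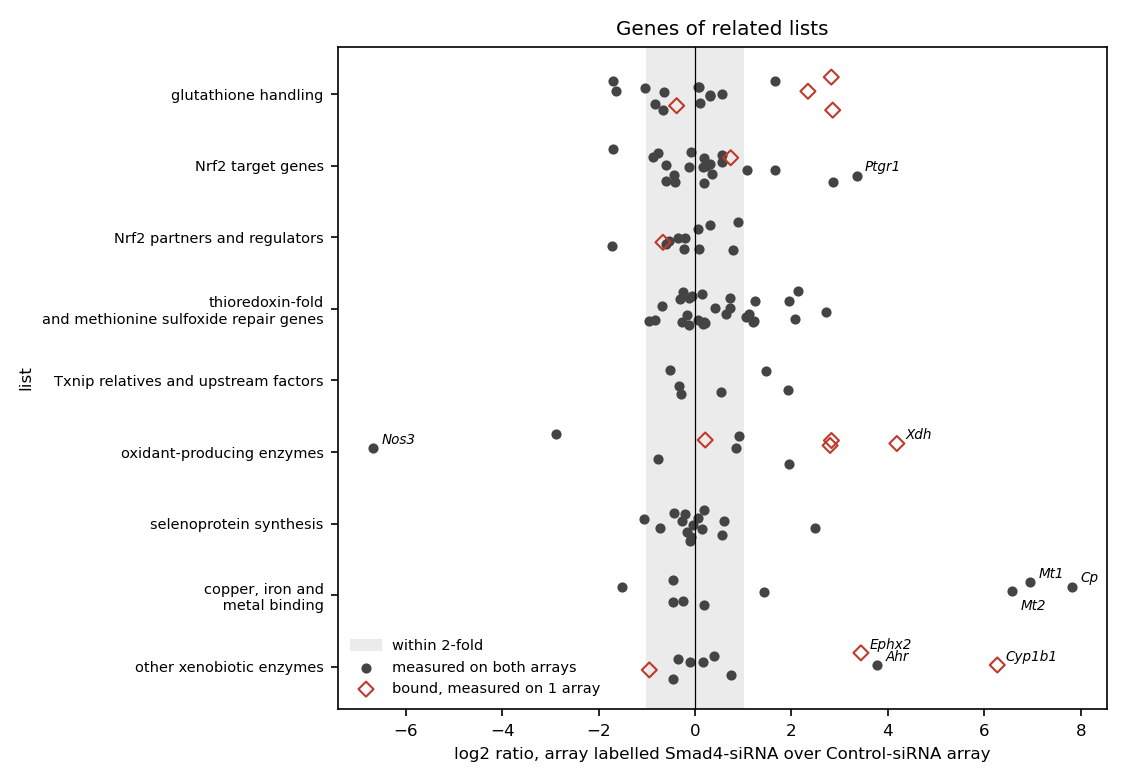
Log2 ratios of the genes of 9 related lists (dots, measured on both arrays; open diamonds, bounds for genes measured on 1 array alone; vertical scatter within a list is for display), with genes past a log2 ratio of 3 in size named; grey marks the range within 2-fold. Most genes of the Nrf2 lists lie within 2-fold, while Nos3 lies far to the left and Cp, Mt1 and Cyp1b1 far to the right.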

How the data were processed

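Total RNA of 2 samples, grouped by sample title with 1 array each, was labelled by the maker's standard protocol from 6 ug, per the labels' protocols. The authors deposited a linear signal intensity for each probe set, and MAS5 is named in the submitters' processing notes. Its version, the scaling target and detection calling were left unstated: not given in the sources used here. Of 45101 probe sets, 64 controls were left out. Names came from the platform annotation, updated by Entrez identifier against RefSeq (GRCm38.p6): 34945 probe sets had 1 gene, 932 several and 9160 none. All members were named, with their symbols unchanged. In each related list, the 2 highest and 2 lowest genes on both arrays and the largest bound each way, if past 2-fold, were named. Ephx2, Tiparp, Ahrr and Cyp1a1 were named besides.

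The deposited intensity of the arrays had 2% trimmed means of 114 and 138 (-17.2%), so log2 signals were quantile normalized (numpy 2.4.6, pandas 2.3.3, statsmodels 0.14.6, Python 3.11.15). Promoter windows came from RefSeq and were searched as letters. The calculation was checked on simulated data, in which the changed genes lay well above the floor. That check did not cover bounds near the floor or changes close to 2-fold. The members and lists were chosen with earlier results of these data known. The alternatives were the values as deposited, median centring, removal of a lowess trend (fraction 0.3), no floor or one at percentile 25 or 75, an added pseudocount, a gene's median probe set value, and leaving out probe sets of shared sequence.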

Additional observations from a re-analysis of the deposited data

How the results depend on the processing

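With 1 array per group no replicate could be left out, and no value has a check from a second culture. No paired analysis was possible because each group has only 1 array. Over the 9 alternatives the number of members at least 2-fold higher ran from 13 to 20, beside 17, and the number at least 2-fold lower from 3 to 9, beside 6. The lower count of 3 came with a floor at the 75th percentile, where 39 members were measured. The median log2 ratio ran from -0.05 as deposited to 0.35 without probe sets of shared sequence. Of 17 higher genes, 13 kept their call in every alternative that gave a value, and Cat, Mgst2, Prdx3 and Prdx4 did not. Of 6 lower genes, 5 did, and Gsto2 did not. Of the 25 between, 21 did, and Glrx5, Gpx1 and Mgst3 became lower as deposited and Gpx3 higher with a floor at the 25th percentile or none. No member past 2-fold changed sign. Signals near or below the floor limit the values of Gstm2, Gsta4, Gstt1, Gsto2, Gpx7 and Sod3, among others.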

Other observations

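Probe sets that name a member together with another gene stood outside the group. Those of Prdx1 with Gm21399 numbered 5, with log2 ratios from -0.86 to 0.38 and a median of 0.15, and those of Glrx3 with Gm12669 numbered 4, of which the brightest had signals of 548 and 580. One probe set shared by Gsta1, Gsta2 and Gm3776 had 7.02 under the Smad4-siRNA label against 122 under Control-siRNA, opposite in direction to Gsta4.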
